A study of Rattus norvegicus with 9 samples.

Results

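The livers of rats given the compound 7-P were compared with the livers of rats of the model group, 3 arrays against 3, which are 6 of the 9 arrays of the series. Members were chosen by title: the arrays titled as drug livers and those titled as model livers. All animals were Wistar rats of 180 to 220 g labelled male. Of 36 rats, 12 were assigned at random to a control group, 12 to a model group and 12 to a drug group, and 3 of each group, again drawn at random, were arrayed. Every array therefore holds the liver RNA of 1 rat. What was done to the model rats, whether the drug rats also had that treatment, the dose and duration of 7-P and the age of the rats are not stated in the labels. The 3 control livers are printed beside the others as values. Drug minus model and model minus control share the model arrays, so their values stand side by side without any test between them. Values are log2 normalized signals of a probe set, the set of short probes that reads 1 transcript, or in some cases several. A difference of 1 is a doubling, and its standard error (SE) comes from the limma fit of all 9 arrays. Levels of different genes are not compared.

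Markers of hepatocytes, the main cell of the liver, were close between the groups as a list. That does not test the tissue label. Albumin (Alb) was at 12.95, 12.87 and 12.87 in the model livers and at 12.82, 12.95 and 12.95 in the drug livers. Over 12 hepatocyte identity genes the median difference was 0.02, with 0 of them without overlap between the groups. The sex label was not borne out in every array. Xist, a non-coding RNA made from the inactive X of female cells, was at 3.05 in drug 3, against 8.63 in drug 1, 10.7 in drug 2 and 9.62 to 10.9 in the model livers. Eif2s3y, a gene of the Y chromosome, was at 7.17 in drug 3 and at most 2.10 in the other 5 drug and model arrays. Cyp2c11, the male steroid hydroxylase of rat liver, was at 12.1 in drug 3 and at most 5.22 in those 5, while the female Cyp2c12 was at 8.19 against at least 11.9. Among the controls, control 2 had the pattern of drug 3. Uty, another gene of the Y chromosome, did not follow this pattern. It was at 5.71 in drug 3 and 6.19 in control 2, against 6.54 to 6.80 in the other arrays. Apart from Uty, drug 3 and control 2 thus had the male pattern that the labels give. Drug 1, drug 2, the 3 model arrays and the other 2 controls had the female one. Drug 3 therefore went against the other drug arrays and all model arrays, and differences are given without it where leaving it out moved them by over 1.5 times.

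The ratio of the Gapdh signal at the 3' end of the transcript to that at the 5' end grows as less of the 5' end is measured. It was 4.09, 12.7 and 9.77 in model 1, 2 and 3 and 1.31, 9.20 and 8.71 in drug 1, 2 and 3. Drug 1 lay below every model array and the other drug arrays within their range, so the groups overlapped. The log2 ratio differed by -0.76 between drug and model (exact permutation test, two-sided, p = 0.5, n = 3 and 3), and without drug 1 the difference turned to 0.17. The control ratios were 1.52, 3.14 and 3.07. Drug 1 also stood apart over the transcriptome: 786 of 18625 probe sets were at least 1 log2 unit above the highest model array and 1056 that far below the lowest, against 73 and 394 in drug 2 and 211 and 576 in drug 3. The median SD of a probe set inside a group was 0.48 for drug, 0.41 for model and 0.36 for control livers.

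**Figure D1:**
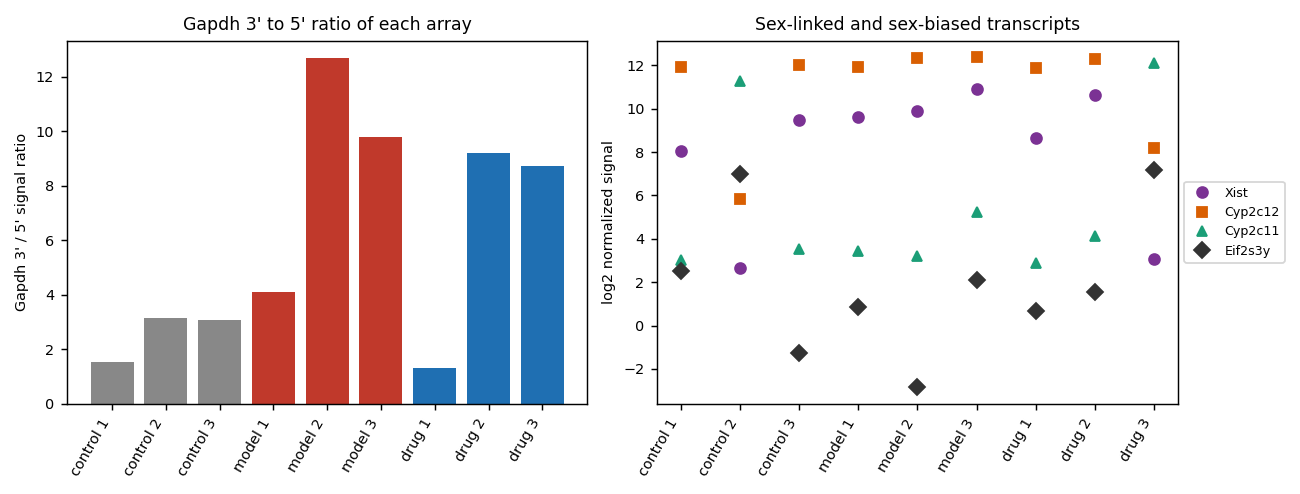
Left, the Gapdh 3' to 5' signal ratio of each array, 1 bar per array (grey control, red model, blue drug). Drug 1 has the lowest ratio, 1.31, and model 2 the highest, 12.7. Right, log2 normalized signals of Xist, Eif2s3y, Cyp2c11 and Cyp2c12 in each array, where control 2 and drug 3 are low in Xist and high in Eif2s3y.

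The liver clears foreign compounds with flavin monooxygenases, cytochromes P450, carboxylesterases and conjugating enzymes, many of them set by ligand-sensing receptors such as the aryl hydrocarbon receptor and the nuclear receptor Car. It also makes fatty acids and cholesterol, under the transcription factors SREBP-1c and SREBP-2, and turns cholesterol into bile acids. Much of this runs on a daily rhythm, kept by a clock in which Bmal1 and Clock drive Per, Cry and Nr1d1, whose products act back on it. Hepatocytes face sinusoids lined by a porous endothelium, with resident macrophages, the Kupffer cells, on it.

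Fmo1, a flavin monooxygenase that oxidizes nitrogen and sulfur in drugs, had the smallest p of all genes. Its signal was 5.03, 5.35 and 4.69 in model 1, 2 and 3 and 8.26, 8.49 and 8.74 in drug 1, 2 and 3. The groups lay far apart, with all drug livers inside the control values of 6.89, 8.99 and 8.45. The difference was 3.47 (SE 0.47), 11.1-fold, with a limma adjusted p of 0.40, and Fmo1 was 3.35 higher without drug 3 and 3.59 without drug 1. In model minus control Fmo1 stood at -3.09. It passed the adjusted threshold in 4 of the alternative settings, with limma adjusted p of 0.041 when the 6 arrays were normalized and fitted alone, 0.042 when these arrays alone entered the fit, 0.0096 without control 1 and 0.015 without control 1 and drug 1. Over all settings its limma adjusted p ran from 0.0096 to 0.9998, and its difference from 3.19 to 3.68. Another family member, Fmo4, was 0.74 (SE 0.33) higher, at 4.30, 4.60 and 5.28 in model and 5.52, 5.66 and 5.22 in drug livers, where drug 3 lay within the model range.

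The promoter of Fmo1, the gene with the smallest p, is shown with that of Nr0b2, which is described with the bile acid genes, because the 2 differ in the letters they hold. Each is the 300-base window around the transcription start from RefSeq (rat build GRCr8). The first lies at chr13:77747617-77747916 on the minus strand and the second at chr5:151062910-151063209 on the plus strand. Capitals mark every match, on either strand, to CACGTG (the E-box), TCACCCCAC (the core of the sterol regulatory element), CCAAT (the CCAAT box), GGGCGG (the GC box) or TATAAA (the TATA box).
Fmo1: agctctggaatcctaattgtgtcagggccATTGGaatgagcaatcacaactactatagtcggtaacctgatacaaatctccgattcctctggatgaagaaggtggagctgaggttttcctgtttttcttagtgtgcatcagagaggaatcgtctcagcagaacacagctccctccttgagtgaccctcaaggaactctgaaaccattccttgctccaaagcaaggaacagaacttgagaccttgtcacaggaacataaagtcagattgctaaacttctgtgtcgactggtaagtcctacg
Nr0b2: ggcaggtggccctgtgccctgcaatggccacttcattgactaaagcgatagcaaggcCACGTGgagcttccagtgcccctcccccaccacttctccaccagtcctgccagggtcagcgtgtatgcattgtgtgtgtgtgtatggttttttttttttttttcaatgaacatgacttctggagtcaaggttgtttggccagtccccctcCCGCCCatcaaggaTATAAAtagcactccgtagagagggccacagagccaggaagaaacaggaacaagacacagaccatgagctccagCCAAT
The Fmo1 window held a single CCAAT match and none of the other 4 motifs. The Nr0b2 window held an E-box, a GC box, a TATA box and a CCAAT match. An E-box stood in 6.42% of the 33469 promoters of the table, a sterol regulatory core in 0.484%, a CCAAT box in 37.5%, a GC box in 33.1% and a TATA box in 14.2%. Among genes whose groups did not overlap, at an unadjusted p under 0.05 and above the filter value in both groups, 11 of the 15 with the largest positive difference had a promoter there, with an E-box in 1 of them, a CCAAT in 4, a GC box in 4 and a TATA box in 3. Of the 15 such genes with the largest negative difference 12 had one, with an E-box in 0, a CCAAT in 2, a GC box in 6 and a TATA box in 1. The sterol core was in 0 of these windows. These matches describe letters in a window and no binding was measured.

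Over all 18625 probe sets 0 passed a limma Benjamini-Hochberg adjusted p of 0.05 (0%), and all genes named here other than Fmo1 had a limma adjusted p of at least 0.998. At an unadjusted limma p under 0.05 there were 610 probe sets (3.28%), of which 274 were higher in drug livers (1.47%) and 336 lower (1.8%). In 1500 probe sets (8.05%) the 3 drug arrays did not overlap the 3 model arrays, 624 higher (3.35%) and 876 lower (4.7%). Counted by gene, 351 of 10432 genes were higher without overlap (3.36%) and 527 lower (5.05%), and 152 were higher and 207 lower at an unadjusted p under 0.05 (1.46% and 1.98%). Of all genes 4918 were higher (47.1%) and 5514 lower (52.9%), and their median difference was -0.03. The genes below are descriptions of these 6 livers, read against those shares. Those with the largest differences were taken from the 297 named probe sets without overlap, at an unadjusted p under 0.05 and above the filter value of 2.82 in both groups.

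**Figure D2:**
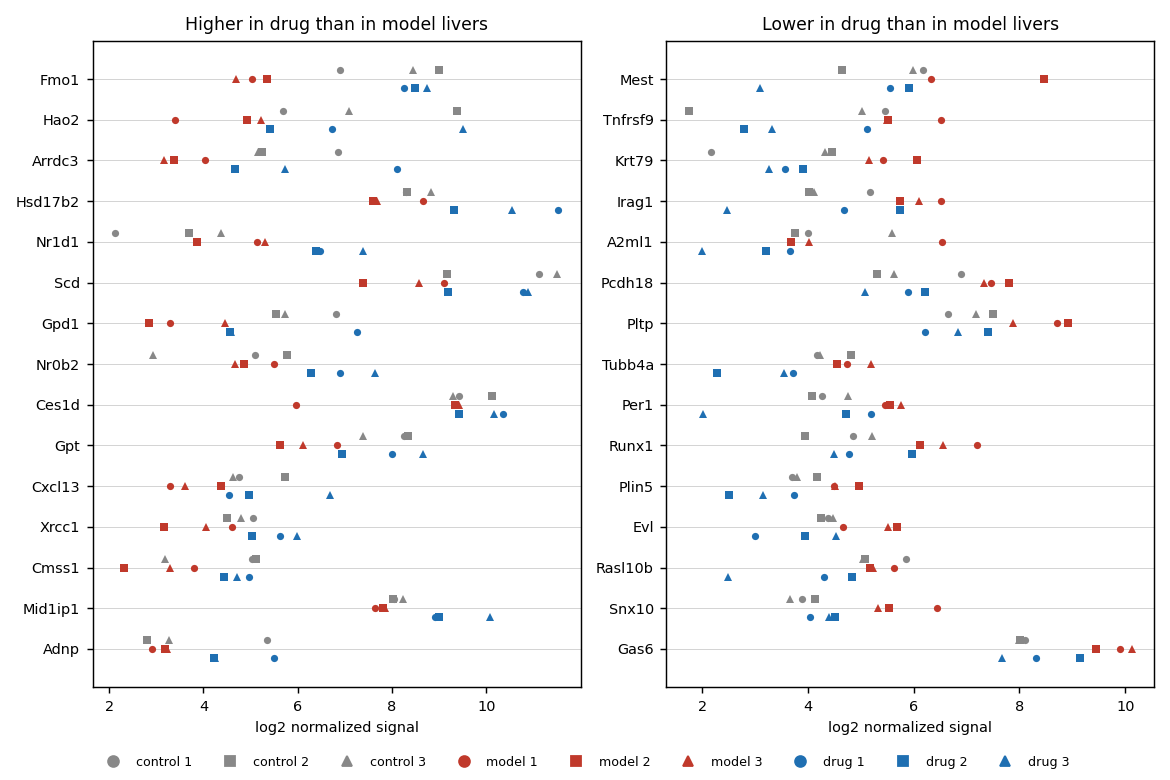
Log2 normalized signal (x axis) of the 15 genes with the largest positive (left) and the 15 with the largest negative (right) difference between drug and model livers, chosen among genes whose groups do not overlap, at an unadjusted p under 0.05 and above the filter value in both groups. Grey points are control, red model and blue drug arrays, with circle, square and triangle for replicate 1, 2 and 3. Fmo1 has the widest gap, from 5.35 in model 2 to 8.26 in drug 1.

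Transcripts of the aryl hydrocarbon receptor system went in opposite directions. Cyp1a1, the best known target of the receptor, was at 7.98, 5.10 and 5.14 in model livers and at 4.40, 0.99 and 1.22 in drug livers. All drug livers lay below all model livers, but drug 2 and 3 were under the filter value, near background, so the difference of -3.87 (SE 0.99) is not an exact size. The controls, at 4.38, 4.84 and 3.49, lay below the model livers too, and drug 2 and 3 were below the controls. Cyp1a2, another target and an abundant P450 of hepatocytes around the central vein, was at 11.99, 12.18 and 12.21 in model and 11.64, 11.83 and 11.39 in drug livers. The groups did not overlap, and the difference was -0.50 (SE 0.18). The receptor Ahr itself was higher, by 1.12 (SE 0.47), at 4.50, 3.09 and 4.13 in model and 5.28, 5.25 and 4.57 in drug livers, again without overlap. Without drug 3 the differences were -3.38 for Cyp1a1, -0.39 for Cyp1a2 and 1.36 for Ahr. Without model 2 that of Ahr was 0.71.

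Of 26 genes of phase I oxidation 18 were higher and 8 lower, with a median of 0.32. Without overlap 3 were higher and 2 lower, against 3.36% and 5.05% of all genes. At an unadjusted p under 0.05 there were 3 higher and 2 lower, against 1.46% and 1.98%. Without drug 3 the median was 0.13. Ces1d, a carboxylesterase that hydrolyses drugs and lipid esters, was 1.74 (SE 0.78) higher. Its lowest drug array, 9.427 in drug 2, lay just above the highest model array, 9.425 in model 3, and model 1 stood apart at 5.97. Without model 1 the difference was 0.60. Cyp2e1, which oxidizes ethanol and small solvents, was 0.46 (SE 0.24) higher, with drug 2 at 11.59 inside the model range of 11.58 to 11.70, and 0.28 higher without drug 1.

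Among 21 genes of phase II conjugation 15 were higher and 6 lower, with a median of 0.21. Without overlap 3 were higher and 0 lower, against 3.36% and 5.05% of all genes. The glutathione transferase Gstm4 was at 6.46, 5.84 and 6.38 in model and 8.24, 6.71 and 7.25 in drug livers, a difference of 1.18 (SE 0.37), or 0.75 without drug 1. Gstm7 was at 7.12, 6.98 and 7.10 in model and 7.59, 7.30 and 9.14 in drug livers. Its difference of 0.95 (SE 0.42) was 0.38 without drug 3. Gclc, the catalytic subunit of the enzyme that limits glutathione synthesis, was 0.44 (SE 0.22) higher, and 1.49 (SE 0.72) at a further probe set. Nr1i3, the receptor Car that drives many of these enzymes, was 1.62 (SE 0.62) higher, at 3.59, 3.46 and 5.14 in model and 5.11, 5.15 and 6.77 in drug livers, where drug 1 and model 3 overlapped narrowly. Without drug 3 it was 1.07 higher. Over 22 nuclear receptors 13 were higher and 9 lower, with a median of 0.04, or 0.20 without drug 3.

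**Figure D3:**
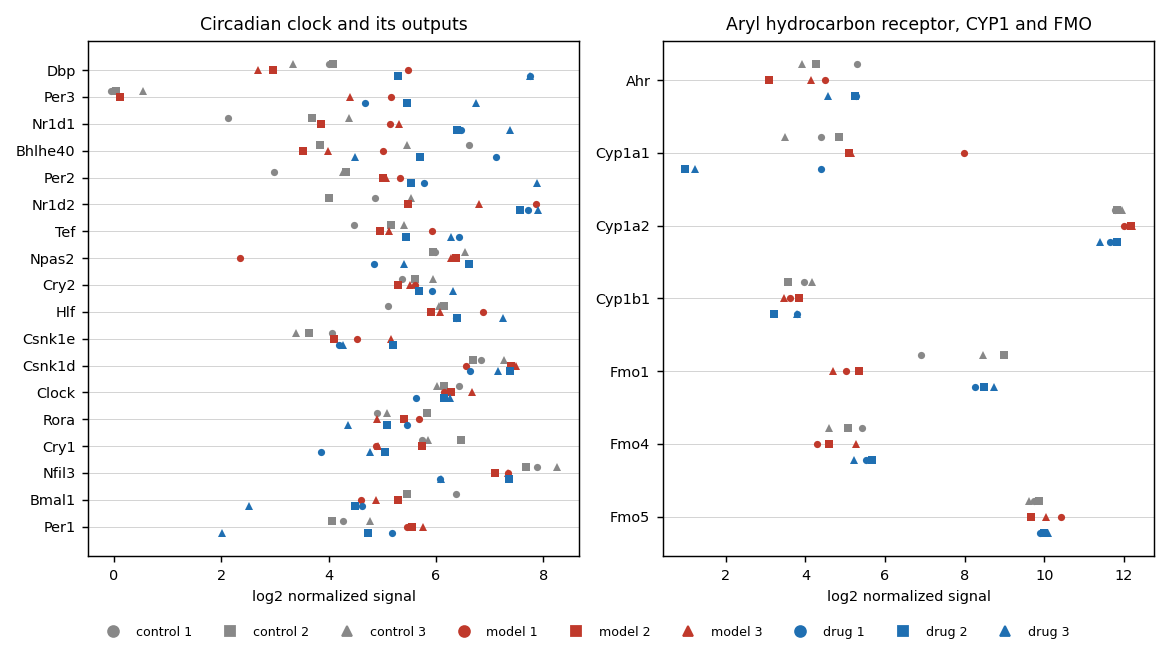
Log2 normalized signals (x axis) of 18 clock genes and outputs (left) and of the aryl hydrocarbon receptor, CYP1 and FMO genes measured above the filter (right), with grey control, red model and blue drug arrays and a marker shape per replicate. The Cyp1a1 values of drug 2 and 3, 0.99 and 1.22, lie at the left end of the axis, and the blue Fmo1 points lie to the right of the red ones.

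Genes of bile acid synthesis held a receptor and an enzyme that went opposite ways. Nr0b2 encodes SHP, the repressor through which bile acids lower their own synthesis. It was at 5.50, 4.85 and 4.67 in model and 6.89, 6.29 and 7.65 in drug livers, 1.93 (SE 0.65) higher, or 3.82-fold, without overlap. It was 1.58 higher without drug 3. Cyp8b1, the sterol hydroxylase that sets the share of cholic acid, was at 10.19, 10.19 and 10.30 in model and 10.02, 9.50 and 8.60 in drug livers, a difference of -0.85 (SE 0.33) without overlap that was -0.47 without drug 3. Hsd3b7, an early enzyme of the pathway, was 0.66 (SE 0.30) higher, with drug 2 above model 2 only in the third decimal. The 22 genes of the list gave a median of 0.04, or -0.01 without drug 3. Without overlap 2 were higher and 1 lower, against 3.36% and 5.05% of all genes.

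Lipogenic transcripts were higher in drug than in model livers. Of 26 genes 20 were higher and 6 lower, with a median of 0.48, against -0.03 for all genes. Without overlap 5 were higher and 0 lower, against 3.36% and 5.05% of all genes. At an unadjusted p under 0.05 there were 4 higher and 0 lower, against 1.46% and 1.98%. The mean over the list, relative to the mean of all 9 arrays, was 0.28, 0.29 and 0.26 in drug 1, 2 and 3 and -0.58, -0.15 and 0.06 in model 1, 2 and 3. The drug arrays were alike and all above the model arrays, of which model 1 was the lowest. Controls were spread more widely, at 0.14, -0.64 and 0.34, with control 2 below every model array and control 3 above every drug array. The list median was 0.74 without model 3 and 0.24 without drug 2, and 0.27 without drug 3.

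Scd, the desaturase that makes monounsaturated fatty acids, was at 9.10, 7.37 and 8.58 in model and 10.78, 9.18 and 10.89 in drug livers. Its difference was 1.94 (SE 0.68), 3.83-fold, with drug 2 only just above model 1. Srebf1, the gene of SREBP-1c, was at 8.19, 8.62 and 9.07 in model and 9.35, 9.63 and 10.75 in drug livers, and a further probe set of it was also without overlap, at 1.51 (SE 0.36). Mid1ip1, an activator of acetyl-CoA carboxylase, was at 7.64, 7.81 and 7.84 in model and 8.91, 9.0 and 10.07 in drug livers, 1.56 (SE 0.30) higher, and control values between 8.03 and 8.23 lay between the groups. These 3 genes were higher in every drug liver. Pklr, the pyruvate kinase of liver, was 1.38 (SE 0.46) higher and a further probe set of it 1.41 (SE 0.51), both without overlap. The first was 0.87 without model 1. Pnpla3, a lipid droplet hydrolase, was 1.82 (SE 0.87) higher, with model 1 under the filter value at 0.87, and 0.75 higher without model 1. Gpd1, which supplies glycerol phosphate for triglycerides, was 1.93 (SE 0.72) higher at 1 probe set, mostly through drug 1 (7.25, against 4.55 and 4.59 in drug 2 and 3). It was 1.04 higher without drug 1, while its further probe set differed by 0.18 (SE 0.39).

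**Figure D4:**
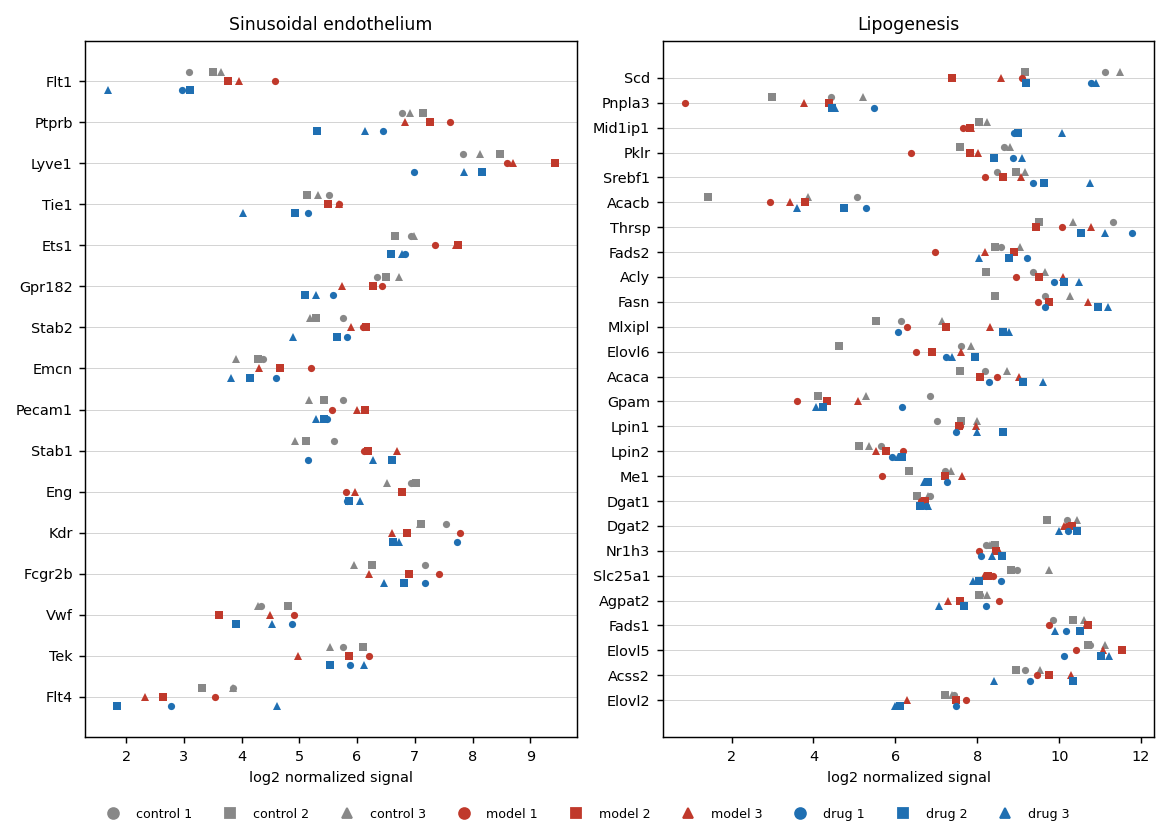
Log2 normalized signals (x axis) of the 16 sinusoidal endothelium genes (left, from the most negative difference at the top) and the 26 lipogenesis genes (right, from the most positive at the top), with grey control, red model and blue drug arrays and a marker shape per replicate. In 8 endothelial genes all blue points lie left of all red ones, and in 5 lipogenic genes all lie right of them.

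Genes that carry, store and burn lipid lay near the median of all genes as lists when all arrays were in. The medians were -0.05 for 23 lipoprotein genes, -0.01 for 15 lipid droplet genes and -0.01 for 22 genes of fatty acid oxidation. In that order they were -0.01, -0.09 and 0.11 without drug 3, and -0.16, -0.17 and -0.22 without drug 1. The mean over the fatty acid oxidation list was 0.40, -0.44 and -0.39 in drug 1, 2 and 3. In model 1, 2 and 3 it was -0.01, 0.01 and -0.38. Single members stood out. Pltp, which moves phospholipid between lipoproteins, was at 8.70, 8.92 and 7.87 in model and 6.21, 7.41 and 6.84 in drug livers, a difference of -1.68 (SE 0.38). Controls were at 6.66, 7.51 and 7.17, inside or near the drug values. Lipc, the hepatic lipase, was at 8.55, 9.29 and 8.75 in model and 9.77, 9.40 and 9.74 in drug livers, 0.77 (SE 0.23) higher without overlap. Plin5, which links droplets to mitochondria, was at 4.50, 4.96 and 4.52 in model and 3.73, 2.50 and 3.15 in drug livers, a difference of -1.53 (SE 0.39). Eci1, an isomerase of mitochondrial fatty acid oxidation, differed by -1.10 (SE 0.49), with model 1 (8.34) among the drug values of 7.91 to 8.88, and by -1.71 without model 1. Hao2, a peroxisomal hydroxy acid oxidase, was 2.69 (SE 1.10) higher, at 3.40, 4.93 and 5.22 in model and 6.73, 5.40 and 9.50 in drug livers. Its difference was 1.55 without drug 3, and control 2, the other array low in Xist, was the highest control at 9.38.

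Genes of glucose metabolism and insulin signalling gave a median of -0.02 over 18 genes, or 0.06 without drug 3. Without overlap 1 was higher and 2 lower, against 3.36% and 5.05% of all genes. Pck1, the enzyme that commits carbon to glucose synthesis, was at 11.59, 11.80 and 11.95 in model and 10.71, 11.39 and 11.15 in drug livers. It differed by -0.70 (SE 0.22), and the controls, at 11.09 to 11.53, also lay below the model livers. Insr, the insulin receptor, was at 6.15, 6.29 and 6.20 in model and 5.75, 5.50 and 5.44 in drug livers, a difference of -0.65 (SE 0.28), but a further probe set of it gave 0.24 (SE 0.54). Pygl, the glycogen phosphorylase of liver, was 0.79 (SE 0.33) higher with overlap. Gpt, the alanine transaminase, was at 6.82, 5.62 and 6.10 in model and 8.0, 6.94 and 8.65 in drug livers, 1.68 (SE 0.47) higher, and controls were at 8.25, 8.34 and 7.37. Over 30 genes of the urea cycle and amino acid catabolism 23 were higher and 7 lower, with a median of 0.14. Higher without overlap were 2, against 3.36% of all genes: Gpt and Bckdha (0.42, SE 0.25), a subunit of the dehydrogenase of branched-chain keto acids. The Bckdha difference was 0.18 without drug 1.

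Cholesterol synthesis transcripts were lower on average in the drug livers, and that rested on drug 3. Of 20 genes 18 were lower, with a median of -0.60, or -0.06 without drug 3. The mean over the list was 0.27, 0.55 and -1.61 in drug 1, 2 and 3 and 0.28 to 0.46 in the model arrays, so drug 1 and 2 lay close to or above the model livers. Sqle, the squalene epoxidase, was at 8.55, 7.25 and 7.08 in model and 7.48, 7.59 and 3.08 in drug livers. Idi1 was at 10.20, 9.98 and 10.22 in model and 9.12, 10.09 and 5.98 in drug livers. Without drug 3 the differences were -0.09 for Sqle and -0.53 for Idi1. Control 2, which shares the Xist pattern of drug 3, was the lowest control on this list at -0.61, against 0.07 and 0.17. Hsd17b7 was the single gene without overlap, at 9.09, 8.44 and 8.18 in model and 7.91, 7.94 and 5.65 in drug livers, a difference of -1.40 that was -0.64 without drug 3. A further probe set of it gave -0.50 (SE 0.72).

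Clock transcripts differed in both directions, with Dbp, Nr1d1 and Per2 higher and Per1 and Bmal1 lower. Of 18 genes 10 were higher and 8 lower, with a median of 0.44 and 0.22 without drug 3. Without overlap 3 were higher and 1 lower, against 3.36% and 5.05% of all genes. The hour at which the livers were taken is not stated in the labels. Dbp, an output transcription factor of the clock, was at 5.48, 2.96 and 2.68 in model and 7.74, 5.30 and 7.75 in drug livers. It was 3.22 (SE 0.81) higher, and model 1 lay just above drug 2. Nr1d1, the repressor of Bmal1, was at 5.14, 3.85 and 5.30 in model and 6.47, 6.39 and 7.38 in drug livers, a difference of 1.98 (SE 0.59) without overlap, and controls were at 2.12, 3.70 and 4.37. Per2 was 1.27 (SE 0.59) higher without overlap, and 0.53 without drug 3. Bmal1, which Nr1d1 represses, was at 4.61, 5.30 and 4.89 in model and 4.62, 4.49 and 2.51 in drug livers, a difference of -1.06 (SE 0.54) with overlap by 0.01 that was -0.38 without drug 3. Per1, a period gene that glucocorticoids also induce, went the other way from Per2. It was at 5.45, 5.55 and 5.76 in model and 5.19, 4.73 and 2.02 in drug livers, -1.61 (SE 0.68), or -0.63 without drug 3. Of the 14 glucocorticoid-responsive genes 10 were lower and 4 higher, with a median of -0.28. Lower without overlap were 3, against 5.05% of all genes: Per1, Pck1 and Cebpd, at -1.37 (SE 0.50). Dusp1 of that list went the other way, at 1.74 (SE 0.82) with overlap. Cebpd was at -0.91 without drug 3 and -0.90 without model 1, and a further probe set of it gave 0.35 (SE 1.04).

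Of 28 interferon and MHC class I genes 20 were higher and 8 lower, where 47.1% of all genes were higher. Their median was 0.13, against -0.03 for all genes. The mean over the list was -0.02, 0.003 and -0.30 in model 1, 2 and 3 and 0.23, -0.005 and 0.27 in drug 1, 2 and 3. Drug 2 lay just below model 2, so the groups overlapped on this list. Without overlap 5 were higher and 0 lower, where 3.36% of all genes were higher without overlap. Irf7, the factor that amplifies interferon production, was at 6.02, 6.01 and 5.27 in model and 6.74, 6.75 and 6.93 in drug livers. Isg15, a ubiquitin-like protein, was at 5.64, 5.86 and 5.75 in model and 6.41, 6.88 and 6.95 in drug livers. Usp18, which removes Isg15 from proteins, was 1.54 (SE 0.52) higher and 1.07 without drug 3. The drug livers were above all model livers in these 3 genes. Controls lay between 5.65 and 6.37 in Irf7 and Isg15, also reaching above the model livers.

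Transcripts of the sinusoidal endothelium were lower in the drug livers. Of 16 genes 13 were lower and 3 higher, with a median of -0.52, and 8 were lower and 0 higher without overlap (where 5.05% of all genes were lower without overlap). At an unadjusted p under 0.05 there were 6 lower genes, against 1.98% of all genes. Lyve1, the hyaluronan receptor of these cells, was at 8.60, 9.42 and 8.70 in model and 6.99, 8.16 and 7.86 in drug livers, and a further probe set was also without overlap, at -0.79 (SE 0.33). Ptprb, a phosphatase of endothelial junctions, was at 7.61, 7.26 and 6.82 in model and 6.45, 5.31 and 6.13 in drug livers. Ets1, a transcription factor of endothelium and lymphocytes, was at 7.35, 7.74 and 7.71 in model and 6.83, 6.59 and 6.78 in drug livers. The 3 genes differed by -1.24 (SE 0.35), -1.27 (SE 0.33) and -0.87 (SE 0.22), but a further probe set of Ptprb gave -0.18 (SE 0.47).

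Gpr182, a receptor of sinusoidal endothelium, differed by -0.82 (SE 0.27), though a dimmer probe set gave 0.05 (SE 0.57). Picked out after their values were seen, the VEGF receptor Flt1 (-1.52), the angiopoietin co-receptor Tie1 (-0.92), the scavenger receptor Stab2 and the adhesion molecule Pecam1 were also without overlap. The drug mean of Flt1, 2.58, was under the filter value, so its difference is not an exact size. Without drug 3 the differences were -0.58 for Tie1 and -0.30 for Stab2. The list mean was -0.14, -0.37 and -0.31 in drug 1, 2 and 3 and 0.46, 0.26 and 0.03 in model 1, 2 and 3. Controls were at 0.13, 0.04 and -0.09, the first 2 within the model range and the third between the groups. Without drug 3 the median was -0.45 and without drug 1 it was -0.64, so neither array carried it. In whole liver RNA fewer endothelial cells and less RNA per cell cannot be told apart.

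Markers of other liver cells overlapped between the groups as lists. The mean over 17 macrophage genes was 0.20, 0.71 and 0.06 in model and 0.59, -0.11 and -0.26 in drug livers, with a median difference of -0.28, or -0.10 without drug 3. Gas6, a ligand that bridges dying cells to phagocytes, was at 9.90, 9.44 and 10.13 in model and 8.31, 9.14 and 7.67 in drug livers, -1.45 (SE 0.35), while controls held at 7.98 to 8.10. Its further probe sets gave -1.01 (SE 0.60) and -0.43 (SE 0.46), both with overlap. Fcer1g, the shared chain of Fc receptors, was also without overlap, at -0.55 (SE 0.32), or -0.31 without model 2. Of the 17 macrophage genes 13 were lower and 4 higher. Without overlap 2 of them, Gas6 and Fcer1g, were lower and 0 higher, against 5.05% and 3.36% of all genes. Of the 23 genes of stellate cells and matrix 18 were lower and 5 higher, with a median of -0.24. Lower without overlap were 2, against 5.05% of all genes: Tgfbi (-0.32) and Ccn2 (-0.68). These were -0.19 for Tgfbi without drug 1 and -0.40 for Ccn2 without drug 2. The neutrophil proteins S100a8 and S100a9 were spread inside both groups: S100a9 was at 10.54, 8.42 and 9.96 in model and 6.57, 10.14 and 6.53 in drug livers. S100a8 differed by -1.97, and by -1.26 without drug 3. Of 6 neutrophil genes 5 were lower and 1, Mmp8, was higher at 0.39 (SE 0.53). Their median was -0.85, or -1.17 without drug 3, and 0 were without overlap. Among T and natural killer cell genes Ctsw, a protease of cytotoxic cells, was at 4.89, 5.54 and 4.52 in model and 2.03, 3.17 and 2.99 in drug livers, while the granule protease Gzmb went the other way at 1.45 (SE 0.61). The drug mean of Ctsw, 2.73, and the model mean of Gzmb, 1.86, were under the filter value, so neither difference is an exact size. Their 19-gene median was -0.02, with 2 genes lower and 0 higher without overlap, against 5.05% and 3.36% of all genes. The B cell antigen Ms4a1 differed by -1.36 (SE 0.52), not an exact size since its drug mean of 2.65 was under the filter value, and 4 of 5 B cell genes were lower.

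Further genes with large differences belonged to no list. Mest, an imprinted gene, was at 6.32, 8.46 and 8.46 in model and 5.55, 5.92 and 3.09 in drug livers, -2.89 (SE 0.81), or -2.01 without drug 3. Pcdh18, a protocadherin, was at 7.45, 7.79 and 7.32 in model and 5.89, 6.22 and 5.07 in drug livers. Runx1, a transcription factor of blood development, was at 7.20, 6.11 and 6.54 in model and 4.78, 5.97 and 4.49 in drug livers. Snx10, a sorting nexin of endosomes, was at 6.44, 5.54 and 5.33 in model and 4.04, 4.50 and 4.39 in drug livers. In these 4 genes the control means also lay below the model means, by 2.14 for Mest, 1.58 for Pcdh18, 1.95 for Runx1 and 1.88 for Snx10. Further probe sets gave -1.32 (SE 0.76) for Runx1 and -0.86 (SE 0.63) for Snx10, both with overlap. Tnfrsf9, a costimulatory receptor of T cells, differed by -2.10 (SE 0.92) and the keratin gene Krt79 by -1.97 (SE 0.58). Irag1 (-1.82), A2ml1 (-1.80), Tubb4a (-1.64), Evl (-1.47) and Rasl10b (-1.46) complete the lower set, where 2 dimmer Tubb4a probe sets gave -0.18 and 0.03. Without drug 3 the differences were -0.91 for Irag1 and -0.77 for Rasl10b, and without model 1 that of A2ml1 was -0.90. A further probe set of Rasl10b gave -0.62 (SE 0.38).

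On the higher side Hsd17b2, which inactivates estradiol and testosterone, was at 8.65, 7.59 and 7.67 in model and 11.53, 9.30 and 10.54 in drug livers, 2.49 (SE 0.50) higher, with controls at 8.31, 8.32 and 8.82. Though it is on the list of male-predominant genes, its difference without drug 3 was 2.45. The median of that list over 15 genes was 1.43, or 0.08 without drug 3. Akr1c13 of that list was 1.41 (SE 0.64) higher, and 1.39 without drug 3. The 13 female-predominant genes had a median of -1.04, or -0.03 without drug 3. Arrdc3, an arrestin-like adaptor, was at 4.04, 3.38 and 3.17 in model and 8.11, 4.67 and 5.72 in drug livers, a difference of 2.64, or 1.66 without drug 1. A brighter probe set gave 1.13 (SE 0.23), also without overlap. Cxcl13, which attracts B cells, was 1.64 (SE 0.56) higher, and 1.0 without drug 3. Xrcc1, a scaffold of DNA repair, was 1.60 (SE 0.41) higher, Cmss1 1.57 (SE 0.57) and Adnp 1.55 (SE 0.64), while the 2 further Adnp probe sets gave 0.68 and 0.35 with overlap.

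**Figure D5:**
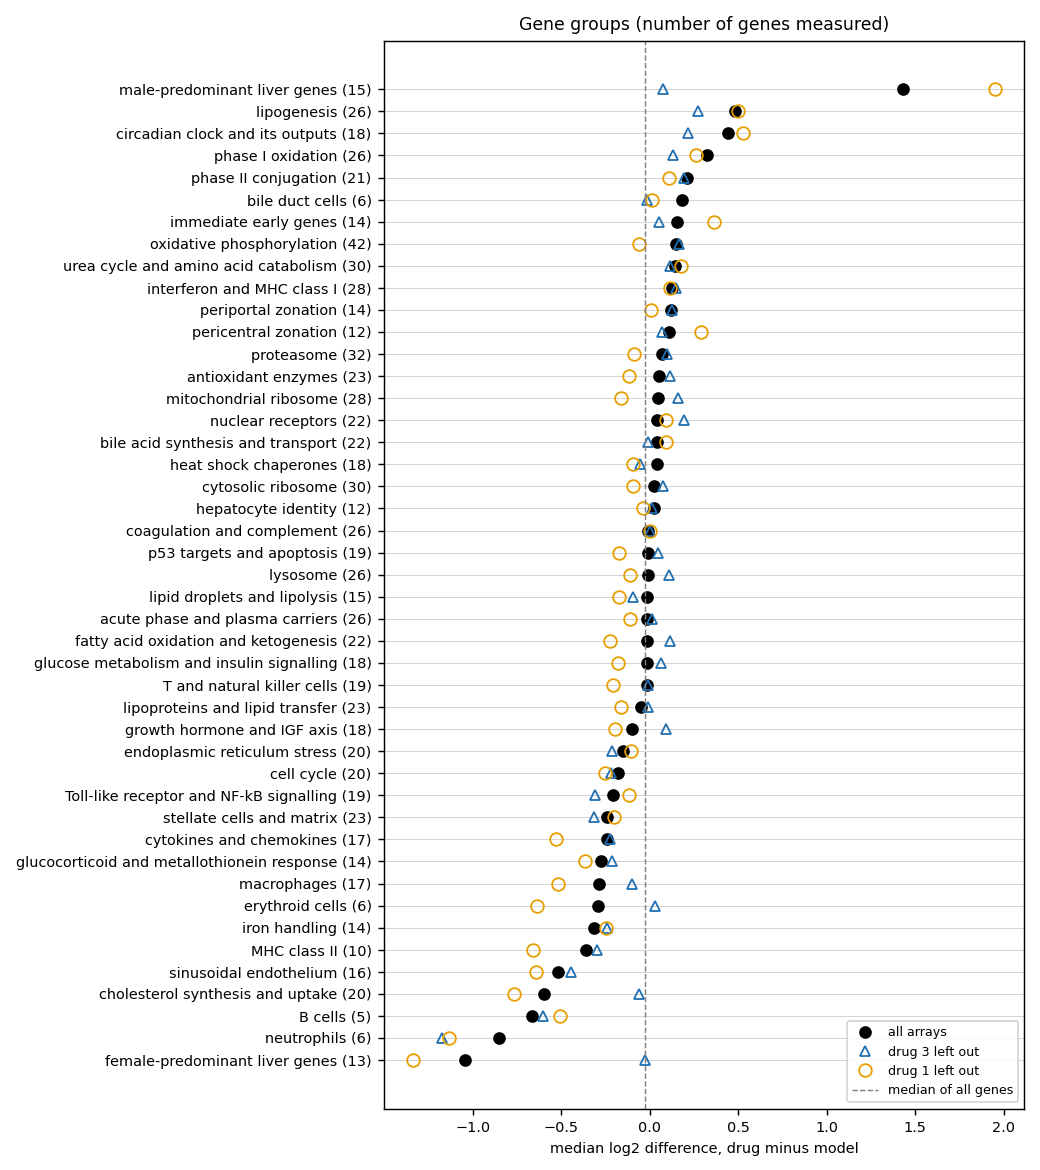
Median log2 difference, drug minus model, of each gene group with 5 or more genes measured (number in brackets), with all arrays (black), without drug 3 (blue triangle) and without drug 1 (orange circle). The dashed line is the median of all genes, -0.03. The endothelial median lies at -0.52 with all arrays, while the sex-biased and cholesterol medians move to near 0 without drug 3.

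Most of the cell's housekeeping groups lay near the median of all genes when all arrays were in. It was 0.15 for 42 genes of oxidative phosphorylation, and -0.06 without drug 1, the array with the lowest Gapdh ratio. It was 0.05 for 28 mitochondrial ribosome genes, 0.02 for 30 cytosolic ribosome genes, 0.07 for 32 proteasome genes and 0.05 for 23 antioxidant enzymes. In that order these medians were -0.16, -0.10, -0.09 and -0.11 without drug 1. Without drug 3 they were 0.16, 0.08, 0.10 and 0.12. The drug arrays were split: the mean over the mitochondrial ribosome list was 0.38, -0.49 and -0.29 in drug 1, 2 and 3. In model 1, 2 and 3 it was 0.19, -0.21 and -0.61. Model minus control medians were -0.56 and -0.58 for oxidative phosphorylation and the mitochondrial ribosome. Hmox1, the heme oxygenase induced by oxidative stress, was at 8.98, 6.74 and 6.79 in model and 6.72, 6.22 and 6.05 in drug livers, without overlap, at -1.17 (SE 0.58), or -0.44 without model 1. Herpud1, which acts in the disposal of misfolded proteins, was 0.76 (SE 0.27) higher without overlap, while 15 of 20 genes of endoplasmic reticulum stress were lower. Socs3, the feedback inhibitor of interleukin 6 signalling, differed by -2.20 (SE 0.85), or -1.14 without drug 3. Drug 2, at 2.27, and drug 3, at -0.10, and the drug mean of 2.03 were under the filter value, so this is not an exact size. The 26 acute phase genes had a median of -0.01.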

How the data were processed

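Total RNA of each liver was labelled with biotin and hybridised to a one-colour Affymetrix rat array, per the labels' protocols. The authors deposited 1 linear signal intensity per probe set and array, and the submitters' processing notes name GCOS 1.2; how it scaled them is not stated. Intensities were taken to log2 and quantile normalized over all 9 arrays, which removes any difference in total RNA. Of 31099 probe sets 57 control rows were left out, and probe sets at or above the 40th percentile of mean log2 signal (2.82) were kept: 18625, of which 13934 had 1 gene symbol. The limma package 3.58.1 (R 4.3.3) gave differences and two-sided p by lmFit and eBayes, with an intensity trend, Benjamini-Hochberg adjustment and 1 term per group. The number of arrays limits the precision: 3 against 3 cannot give an exact permutation p under 0.1.

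A gene in a list was represented by its brightest probe set, and no set was tested. Genes were named by size, as the 15 highest and 15 lowest among those without overlap, above the filter in both groups and at an unadjusted p under 0.05, and by list, as up to 4 genes with the smallest p. The members, the 50 lists and these rules were chosen with earlier results of these data known, and further genes, as well as which lists are described at length, were chosen after their values were seen.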

Additional observations from a re-analysis of the deposited data

How the results depend on the processing

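Of 81 genes followed, Dusp1 not among them, 80 kept the sign of their difference under every alternative that tested them. The exception was Alb, whose difference near 0 turned to -0.033 with the trimmed mean, -9e-04 with a term for control 2 and drug 3, -0.012 without those arrays, and lay between -0.012 and 0.053 with each array left out in turn. Most of the 81 genes were named for groups without overlap or for a small p in these same data. Without overlap a gene cannot change sign when 1 array is left out, so their steadiness was largely set by that choice. It is no measure to hold the group medians against. Of the 50 group medians 32 changed sign in at least 1 setting. These were not only groups near 0: MHC class II was at -0.36, and at 0.05 without model 2. The lipogenic, endothelial, interferon, phase I and phase II medians did not change sign, at 0.24 to 0.74, -0.64 to -0.43, 0.09 to 0.24, 0.13 to 0.44 and 0.11 to 0.45. The count of probe sets past the adjusted threshold was 0, or 1 (Fmo1) with the 6 arrays normalized and fitted alone, with these arrays alone in the fit, and without control 1 and drug 1; leaving out each array in turn gave 0 to 1, the call being without control 1.

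The 610 probe sets at an unadjusted p under 0.05 became 186 without normalization, 1191 with no filter, 1083 with a Gapdh ratio term, 1788 with array weights and 431 to 1077 with each array left out, of which 927 without model 1 and 1077 without drug 2. With array weights 0 passed the adjusted threshold. The replicate block gave 1082 (570 higher, 512 lower) and 0 adjusted calls. Replicate numbers were not taken as pairs. Deviations of same-numbered drug and model arrays correlated at 0.39, 0.08 and 0.18, and those of differently numbered arrays at -0.368 to 0.305. Whether same-numbered arrays share a batch was not tested. The cause of these shifts was not tested. The split of unadjusted calls was 274 higher to 336 lower, and 116 to 70 without normalization, where the overall median was 0.06 in place of -0.02. The Gapdh difference on the log2 scale ran from -1.24 to 0.17 with an array left out, the last without drug 1.

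Group medians that moved by more than the spread were, without normalization, 0.16 for glucose metabolism, -0.15 for iron handling, 0.26 for pericentral zonation and 0.105 for hepatocyte identity. With median centring glucose metabolism was at 0.12 and iron handling at -0.19. With no filter pericentral zonation was at 0.30, and with the stricter filter neutrophils were at -1.93 and the cell cycle at 0.061. With the Gapdh term pericentral zonation was at 0.23. With a term for control 2 and drug 3 nuclear receptors were at 0.22, iron handling at -0.20 and 3 adipose genes at 0.39, and without those arrays these were at 0.20, -0.24 and 0.70 and the clock at 0.22. Without control 1 and drug 1 lipid droplets were at -0.17, glucose metabolism at -0.18, iron handling at -0.25, pericentral zonation at 0.29 and hepatocyte identity at -0.037. Averaging all probe sets of each gene, iron handling was at -0.13, pericentral zonation at 0.37 and hepatocyte identity at 0.17.

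With each array left out in turn the median ran from 0.24 to 0.74 for lipogenesis, -0.24 to 0.0063 for lipoproteins, -0.17 to 0.014 for lipid droplets, -0.18 to 0.062 for glucose metabolism, 0.22 to 0.53 for the clock, -0.11 to 0.19 for the lysosome, -0.10 to 0.27 for nuclear receptors, -0.32 to -0.20 for iron handling, -0.025 to 0.35 for pericentral zonation, -1.29 to -0.18 for B cells, -0.64 to 0.16 for erythroid cells, -0.35 to -0.18 for the cell cycle, -0.042 to 0.10 for hepatocyte identity and -0.71 to 0.70 for adipose tissue.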
